A study of Arabidopsis thaliana with 18 samples.

Results

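Transcript levels are reported for 10 Arabidopsis thaliana genes of 26073 listed per library, 8 of them enzymes of jasmonate synthesis (LOX2, AOS, AOC1, AOC2, AOC3, AOC4, OPR3 and JAR1) and 2 of them vegetative storage protein genes (VSP1 and VSP2). The set was chosen by the LOX2 level, near 0 FPKM in wild-type cotyledons and high in pifq cotyledons. Cotyledon values are therefore given as a description with no test, as are the LOX2 differences in every comparison. Tests are kept to the other 9 genes, in hooks and hypocotyls and between these organs. The study set Col-0 wild type (WT) beside pifq, a Col-0 quadruple mutant (pif1pif3pif4pif5) whose alleles the labels do not give, in seedlings kept in continuous darkness for 4 days at 22 °C on MS medium with 3% sucrose. Cotyledon, apical hook and hypocotyl were sampled from each genotype with 3 libraries per group, 18 in all. Levels are FPKM, read numbers corrected for exon length and for library depth, and differences are pifq minus WT on the scale log2(FPKM + 1) unless another direction is named. A gene is called where limma's adjusted p lies under 0.05.

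Jasmonates are oxylipin hormones made from the linolenic acid of plastid membranes. In the plastid a 13-lipoxygenase such as LOX2 adds oxygen to the fatty acid, allene oxide synthase (AOS) converts the product, and allene oxide cyclases (AOC1 to AOC4) close the ring of 12-oxo-phytodienoic acid, OPDA. OPDA moves to the peroxisome, where OPR3 reduces it and beta-oxidation shortens it to jasmonic acid, and in the cytosol JAR1 joins jasmonic acid to isoleucine to give the active hormone. VSP1 and VSP2 encode storage proteins of vegetative tissue and are commonly used as readouts of the jasmonate response. PIF proteins are basic helix-loop-helix factors that hold back light development in darkness and bind G-box and PBE-box letters in promoters.

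In TAIR10.1, LOX2 (AT3G45140) lies at chr3:16525245-16529352 and AOS (AT5G42650) at chr5:17097564-17099595. AOC1 (AT3G25760), AOC2 (AT3G25770) and AOC3 (AT3G25780) lie in a row at chr3:9403779-9405338, chr3:9406669-9408071 and chr3:9409160-9411090, and AOC4 (AT1G13280) at chr1:4547388-4548894. OPR3 (AT2G06050) lies at chr2:2359114-2362375, JAR1 (AT2G46370) at chr2:19033586-19036683, VSP2 (AT5G24770) at chr5:8500468-8502224 and VSP1 (AT5G24780) at chr5:8507590-8509201. No annotated gene overlapped any of the 10, which bears on libraries made with a kit that does not mark strand.

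The bases before the gene start are shown for LOX2 and AOS, the first plastid enzymes of the route, and for VSP1 and VSP2, the neighbouring pair whose levels parted between the genotypes. Each is the 300 bases upstream of the annotated start in TAIR10.1, 5′ to 3′ on the gene's strand, in lower case. Capitals mark 3 motifs searched on both strands: the G-box CACGTG and the PBE-box CACATG, known binding letters of PIF proteins, and GGACCA, known as a binding site of TCP4, a factor that activates LOX2.

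LOX2 upstream, chr3:16524945-16525244, plus strand: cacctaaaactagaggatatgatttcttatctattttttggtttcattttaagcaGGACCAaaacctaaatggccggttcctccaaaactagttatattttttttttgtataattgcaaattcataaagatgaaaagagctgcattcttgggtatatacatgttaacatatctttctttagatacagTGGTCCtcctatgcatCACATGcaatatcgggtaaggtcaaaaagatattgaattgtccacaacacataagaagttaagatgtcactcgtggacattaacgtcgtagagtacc
AOS upstream, chr5:17099596-17099895, minus strand: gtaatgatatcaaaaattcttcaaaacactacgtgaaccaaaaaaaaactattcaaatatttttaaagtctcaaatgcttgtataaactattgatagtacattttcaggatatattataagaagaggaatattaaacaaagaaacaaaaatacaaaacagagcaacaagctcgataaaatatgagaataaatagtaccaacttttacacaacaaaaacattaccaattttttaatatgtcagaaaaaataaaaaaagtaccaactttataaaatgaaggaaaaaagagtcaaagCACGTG
VSP1 upstream, chr5:8509202-8509501, minus strand: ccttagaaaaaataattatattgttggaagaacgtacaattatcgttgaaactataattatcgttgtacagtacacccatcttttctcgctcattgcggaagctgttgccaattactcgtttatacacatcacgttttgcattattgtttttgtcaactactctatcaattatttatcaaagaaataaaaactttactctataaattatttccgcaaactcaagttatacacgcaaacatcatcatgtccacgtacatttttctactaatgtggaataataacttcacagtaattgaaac
VSP2 upstream, chr5:8502225-8502524, minus strand: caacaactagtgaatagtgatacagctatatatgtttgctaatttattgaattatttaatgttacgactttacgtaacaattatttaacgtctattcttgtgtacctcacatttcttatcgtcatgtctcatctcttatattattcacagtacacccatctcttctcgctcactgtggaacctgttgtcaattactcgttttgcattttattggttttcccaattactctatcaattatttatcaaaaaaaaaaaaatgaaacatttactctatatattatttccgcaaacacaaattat

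The LOX2 window held GGACCA at 2 places, 245 and 113 bases before the start and the second on the opposite strand, and 1 PBE-box 97 bases before the start. In the AOS window 1 G-box began 6 bases before the start. Neither VSP window held any of the 3 motifs, and the longest run they shared was 23 bases, TACTCTATCAATTATTTATCAAA, beginning 142 bases before the VSP1 start and 76 before the VSP2 start. Among the 10 genes, the G-box was in 1 window, the PBE-box in 3 (LOX2, AOC4 and JAR1) and GGACCA in 4 (LOX2, AOC1, AOC3 and JAR1). Of 24067 windows of the same length over the genome, 7.67% held the G-box, 13.2% the PBE-box and 7.18% GGACCA. These matches describe letters in a window and no binding was measured.

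The libraries held 12955815 to 20701103 reads or read pairs by the whole-read steps of their low values. PIF3, which checks the labels, lay at 40.1 to 90.8 FPKM in the 9 WT libraries and at 1.80 to 4.46 FPKM in the 9 pifq libraries. PIF5 was lower in pifq hooks (-1.80, limma adjusted p = 3.66e-08) and hypocotyls (-0.74, 0.000526), PIF1 lower in hooks (-0.73, 0.0048) and higher in hypocotyls (1.01, 0.000509), and PIF4 higher in hypocotyls (1.47, 5.59e-06) and not called in hooks (0.21, 0.319). Transcripts of a mutated locus need not fall, so with alleles not given PIF1 and PIF4 check nothing. Chloroplast- and mitochondrion-encoded transcripts made 1.01% to 4.12% of the FPKM in WT libraries, against at most 0.227% in pifq cotyledons and hooks and 0.0970% to 1.61% in pifq hypocotyls, so this share moved with genotype, and its part in the results was not tested beyond the fit given with the hook values. Markers of lateral organ blades, 6 of 6 measured, summed to 224 to 243 FPKM in WT cotyledons, 98.2 to 123 in WT hooks and 38.2 to 48.8 in WT hypocotyls. In pifq they summed to 176 to 186 FPKM in cotyledons, 245 to 262 in hooks and 60.1 to 73.2 in hypocotyls. The order of organs thus differed between the genotypes, with hooks above cotyledons in pifq. None of 5 root markers passed the filter on low values, and they summed to at most 5.37 FPKM in a library. Labels do not say whether replicates came from separate cultures, so p-values measure only the spread between these samples.

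In cotyledons, the organ behind the choice of the genes, LOX2 stood at 0.0237, 0 and 0.0176 FPKM in WT replicates 1 to 3 and at 96.1, 72.1 and 64.7 FPKM in pifq. All 3 pifq libraries were high and all 3 WT libraries sat at the level of 1 read or none. Pooled over libraries these were 2 reads in WT and 15283 in pifq, a ratio per read sequenced of 6019 with a 95% counting interval of 1666 to 49706, which covers counting error only. LOX2 passed the filter on low values (at least 1 FPKM in at least 3 libraries) only through pifq libraries, since 8 of 9 pifq libraries and no WT library reached 1 FPKM.

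The cyclase AOC2 had the next largest cotyledon difference of the 10 genes, with 2.91, 2.53 and 2.33 FPKM in WT and 56.6, 55.6 and 49.9 FPKM in pifq. Its 2 groups lay wide apart, with a difference of 3.94. AOS followed at 23.0, 15.3 and 18 FPKM in WT and 41.9, 48.0 and 43.0 FPKM in pifq, and AOC1 at 16.5, 19.4 and 15.5 FPKM in WT and 45.1, 39.8 and 32.3 FPKM in pifq. Differences of 1.21 for AOS and 1.14 for AOC1 put both past 2-fold with groups that did not overlap. On the log2(FPKM + 1) scale AOS, AOC1 and AOC2 were thus past 2-fold and higher in pifq, beside LOX2, whose level set the choice. None of the 10 genes was past 2-fold and lower. Over the genome 8.96% of 19349 genes were past 2-fold and higher, 11% lower and 19.9% in either direction.

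AOC4 and JAR1 were lower in pifq cotyledons, and AOC3 and OPR3 overlapped between the genotypes. AOC4 lay at 42.1, 52.2 and 52.3 FPKM in WT and 24.9, 25.9 and 22.9 FPKM in pifq, a difference of -0.96 with groups apart. JAR1, the conjugating enzyme, lay at 53.6, 52.7 and 51.5 FPKM in WT and 30.6, 31.2 and 30.4 FPKM in pifq, a difference of -0.76 with groups apart. For AOC3 and OPR3 the groups overlapped, with mean levels of 8.10 ± 4.10 and 4.90 ± 1.25 FPKM (SD, n = 3) for AOC3 and 22.1 ± 1.76 and 21.6 ± 2.80 FPKM for OPR3 in WT and pifq. Both VSP genes were low where LOX2 was highest: VSP1 had 2 reads over the WT cotyledon libraries and 1 over the pifq libraries, and VSP2 reached 0 to 0.343 FPKM in WT and 0.838 to 1.58 FPKM in pifq. The VSP2 groups lay apart at a difference of 0.85 on this scale, which damps low levels, while the ratio of mean FPKM was 6.40 and that of pooled reads 5.85 (95% counting interval 3.34 to 11.1).

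**Figure D1:**
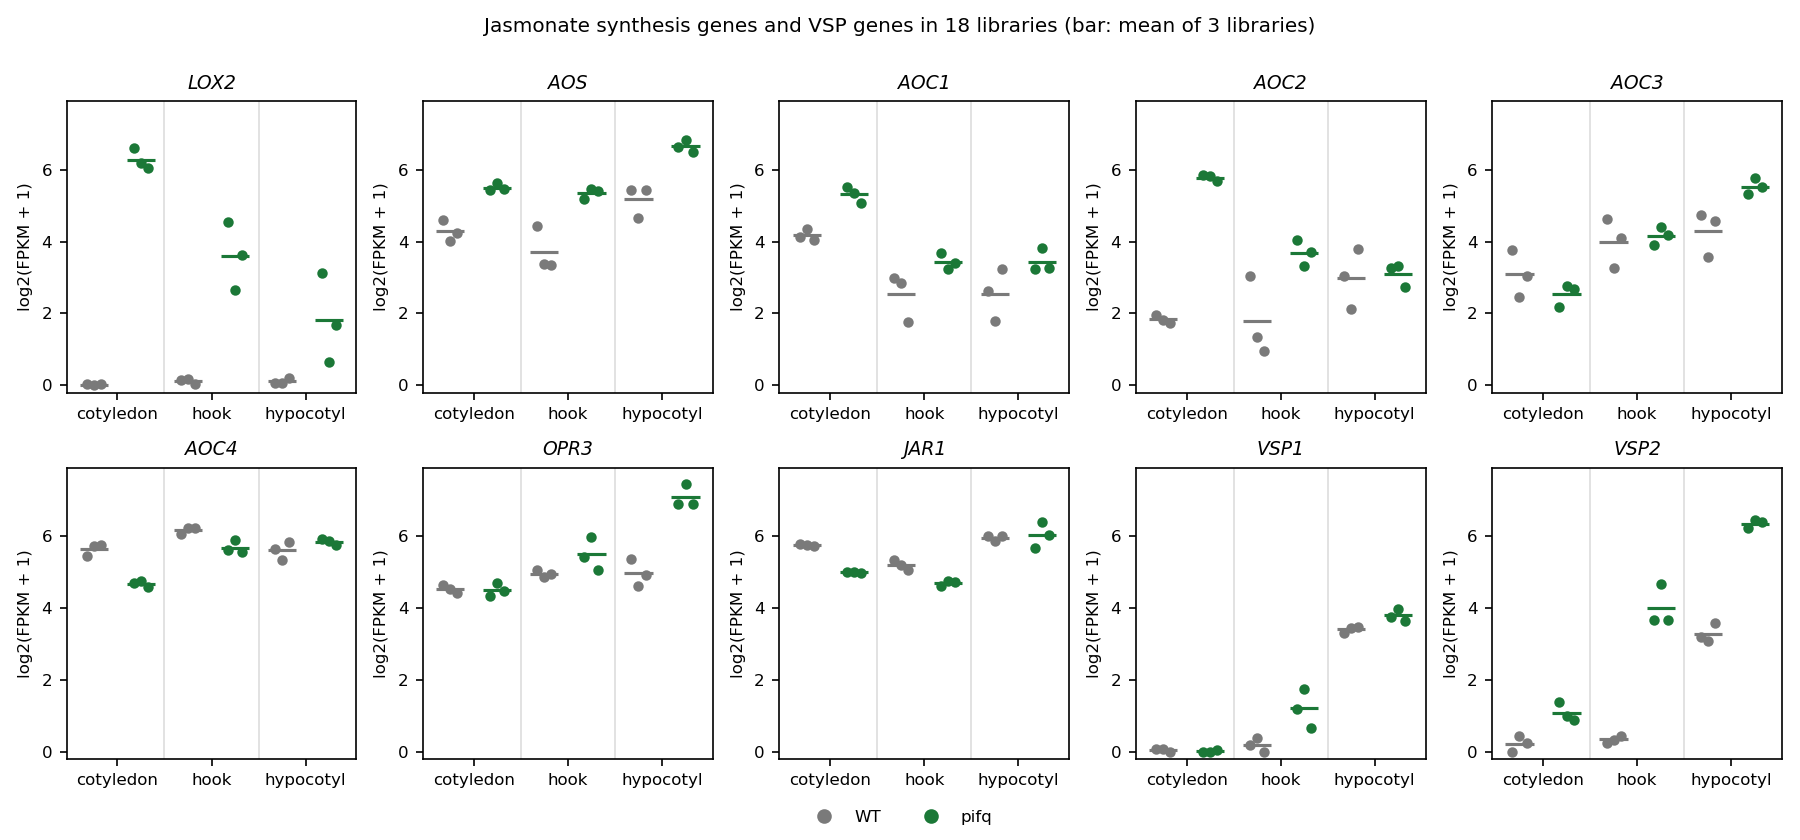
Level of each of the 10 genes as log2(FPKM + 1) in every library, by organ, with WT in grey and pifq in green and a bar at the mean of 3 libraries. LOX2 lies at 0 to 0.142 FPKM in all 9 WT libraries and is highest in pifq cotyledons (64.7 to 96.1 FPKM), while VSP2 is highest in pifq hypocotyls (73.1 to 86.0 FPKM).

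In apical hooks, AOS, AOC1, AOC2, OPR3, VSP1 and VSP2 rose in pifq, AOC4 and JAR1 fell, and AOC3 did not pass the test. These were 6 higher and 2 lower of the 9 genes other than LOX2, where 36.6% of all genes tested were called higher and 24% lower, 60.7% in either direction. The groups did not overlap for 8 of the 9, and for 66.3% of all genes. The median difference of the 9 genes was 0.91, beside 0.12 for all genes, and median-ratio scaling of the libraries moved the latter to -0.02. Calls of all genes were 60.4% higher ones, and 48.2% under that scaling, which left 4 of the 9 genes higher and 2 lower.

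LOX2 lay at 0.103, 0.123 and 0.0181 FPKM in WT hooks and 22.2, 5.30 and 11.4 FPKM in pifq hooks. Every pifq library lay above every WT library, and the pifq libraries differed among themselves, with replicate 1 highest and replicate 2 lowest. The difference was 3.5, given with no test, and pooled reads numbered 13 in WT and 2242 in pifq, a ratio of 155 (95% counting interval 90.4 to 291).

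VSP2 showed the other large rise in hooks, from 0.185, 0.263 and 0.350 FPKM in WT to 11.7, 24.2 and 11.6 FPKM in pifq. The groups were far apart, with pifq replicate 2 highest, the library lowest for LOX2. The difference was 3.65 (SE 0.223, limma adjusted p = 1.59e-09). Its neighbour VSP1 stayed low, at 0.126, 0.298 and 0 FPKM in WT and 1.29, 2.36 and 0.577 FPKM in pifq, again with no overlap and a difference of 1.02 (SE 0.196, limma adjusted p = 0.000296).

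AOS rose in hooks from 20.5, 9.46 and 9.08 FPKM to 35.2, 43.4 and 41.5 FPKM, with WT replicate 1 high for its group yet below every pifq library (1.64, SE 0.253, limma adjusted p = 3.77e-05). AOC2 rose from 7.29, 1.54 and 0.952 FPKM to 15.4, 8.91 and 12.2 FPKM, also with WT replicate 1 standing high (1.90, SE 0.434, limma adjusted p = 0.00128). AOC1 rose from 6.88, 6.20 and 2.38 FPKM to 11.7, 8.42 and 9.63 FPKM (0.91, SE 0.328, limma adjusted p = 0.0243). The AOC1 call was lost without WT hook replicate 3 (0.53, adjusted p = 0.158), without pifq hook replicate 1 (adjusted p = 0.0839) and under median-ratio scaling (adjusted p = 0.0576).

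OPR3, the OPDA reductase, rose from 31.9, 27.9 and 29.4 FPKM to 41.9, 61.8 and 32.4 FPKM in hooks, and the nearest libraries of the groups were 31.9 and 32.4 FPKM (0.55, SE 0.214, limma adjusted p = 0.0371). This call was lost on leaving out any WT hook library (adjusted p of 0.0501, 0.0971 and 0.0773 without replicates 1, 2 and 3), pifq hook replicate 1 (0.0599) or pifq hook replicate 2 (0.30, adjusted p = 0.216), under median-ratio scaling (adjusted p = 0.136) and with no filter on low values (adjusted p = 0.054). AOC4 fell from 65.3, 73.7 and 73.1 FPKM to 47.8, 57.8 and 45.6 FPKM with no overlap (-0.48, SE 0.125, limma adjusted p = 0.00319). JAR1 fell from 39.5, 35.6 and 32.4 FPKM to 23.4, 26.1 and 25.1 FPKM, with every pifq library below every WT library (-0.51, SE 0.128, limma adjusted p = 0.00281). AOC3 was not called, at 23.6, 8.66 and 16.0 FPKM in WT and 13.9, 20.0 and 17.1 FPKM in pifq, with overlapping groups (0.16, SE 0.359, limma adjusted p = 0.712).

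Other measures moved with genotype in the same hook libraries. Stomatal lineage markers, 6 of 6 called higher, summed to 7.96 to 14.0 FPKM in WT hooks and 34.5 to 45.7 FPKM in pifq hooks, and blade markers, 5 of 6 called higher, to 98.2 to 123 FPKM and 245 to 262 FPKM. Meristem and boundary markers, 4 of 5 tested called higher, summed to 11.5 to 15.6 FPKM and 21.4 to 33.2 FPKM, with 1 of the 7 listed at 0 in every WT hook library. Their part in the hook results was not tested, and in these bulk samples fewer cells of a type and less RNA per cell cannot be told apart. A fit with the organelle-encoded level as a covariate, which was almost a stand-in for genotype in hooks, called 3 of the 9 genes other than LOX2. Of all 19349 genes it called 3998 higher and 1971 lower, where the fit without it called 7090 and 4648. With the covariate the differences were 1.01 for AOC1, 1.88 for AOC2 and -0.47 for JAR1, while that of AOC3 turned from 0.16 to -0.33. The median of the 9 genes was 1.01 beside 0.91 without the covariate, and standard errors grew, for AOC1 to 0.661.

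In hypocotyls, AOS, AOC1, AOC3, OPR3 and VSP2 rose in pifq, 5 of the 9 genes other than LOX2, none fell, and AOC2, AOC4, JAR1 and VSP1 did not pass the test. Over all genes tested 35.9% were called higher, 16.5% lower and 52.4% in either direction. The groups did not overlap for 5 of the 9 genes, and for 56% of all genes. The median difference was 0.88 for the 9 genes and 0.17 for all genes, which median-ratio scaling moved to -0.03. Of the calls of all genes 68.45% were higher ones, and 46.25% under that scaling, which left 4 of the 9 genes higher.

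OPR3 rose from 39.9, 23.1 and 29.4 FPKM in WT hypocotyls to 118, 173 and 117 FPKM in pifq. Even the lowest pifq library lay far above the highest WT library, and the difference was 2.12 (SE 0.214, limma adjusted p = 8.41e-07). AOS rose from 42.4, 24.3 and 42.4 FPKM to 98.9, 113 and 88.8 FPKM without overlap (1.47, SE 0.253, limma adjusted p = 0.000154). AOC3, which hardly differed in hooks, rose from 25.6, 11.0 and 22.8 FPKM to 39.0, 53.1 and 44.6 FPKM (1.23, SE 0.359, limma adjusted p = 0.00868), and without WT hypocotyl replicate 2 its adjusted p was 0.0534.

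VSP2 rose from 8.05, 7.48 and 10.9 FPKM to 73.1, 86.0 and 82.1 FPKM, the highest level it reached in any group (3.07, SE 0.223, limma adjusted p = 2.6e-08). VSP1 lay at 8.83, 9.87 and 10.2 FPKM in WT and 12.4, 14.7 and 11.5 FPKM in pifq. Those groups did not overlap, but the difference of 0.38 (SE 0.196, limma adjusted p = 0.115) was not called, and it was called when pifq hook replicate 2 (adjusted p = 0.0356) or replicate 3 (adjusted p = 0.038) was left out of the shared estimate of spread.

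LOX2 lay at 0.0512, 0.0444 and 0.142 FPKM in WT hypocotyls and 7.72, 0.557 and 2.18 FPKM in pifq. The groups did not overlap but the pifq libraries spread widely, and the difference of 1.70, given with no test, was 1.05 without pifq replicate 1, the highest. Pooled reads numbered 13 in WT and 654 in pifq, a ratio of 42.8 (95% counting interval 24.8 to 80.8). AOC1 rose from 5.22, 2.42 and 8.44 FPKM to 8.36, 13.2 and 8.52 FPKM although the groups overlapped (0.88, SE 0.328, limma adjusted p = 0.0327). The AOC1 call was lost without WT hypocotyl replicate 1 (adjusted p = 0.0562) or 2 (0.50, adjusted p = 0.19), without pifq hypocotyl replicate 2 (adjusted p = 0.124), under median-ratio scaling (adjusted p = 0.0948) and with no filter on low values (adjusted p = 0.0509). Cell-type markers moved here as well. Stomatal lineage markers, 5 of 6 called higher, summed to 2.92 to 5.0 FPKM in WT hypocotyls and 7.36 to 13.6 FPKM in pifq, and blade markers, 4 of 6 called higher and 1 lower, to 38.2 to 48.8 FPKM and 60.1 to 73.2 FPKM. Meristem and boundary markers, 2 of 5 tested called higher and 1 lower, summed to 4.01 to 4.36 FPKM and 4.71 to 8.17 FPKM, and the part of these markers in the hypocotyl results was not tested.

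The 3 other genes overlapped between the genotypes in hypocotyls. AOC2 averaged 7.77 ± 4.74 FPKM in WT and 7.76 ± 1.84 FPKM in pifq (SD, n = 3), and AOC4 47.8 ± 8.29 and 56.5 ± 3.20 FPKM. JAR1 averaged 60.9 ± 3.66 FPKM in WT and 65.6 ± 16.2 FPKM in pifq. Limma adjusted p-values were 0.82 for AOC2, 0.108 for AOC4 and 0.625 for JAR1, and AOC4 was called higher (0.36, adjusted p = 0.0276) without WT hypocotyl replicate 3.

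Transcripts of 13 genes known to respond early to touch and wounding, which also induce jasmonate synthesis, varied between libraries of a group. Their sum in WT replicates 1, 2 and 3 was 189, 88.1 and 117 FPKM in cotyledons, 270, 125 and 228 FPKM in hooks and 333, 170 and 234 FPKM in hypocotyls. In pifq it was 239, 194 and 602 FPKM in cotyledons, 288, 297 and 675 FPKM in hooks and 466, 462 and 615 FPKM in hypocotyls. WT replicate 1 was thus highest and replicate 2 lowest in every organ, the order that AOC3 showed in WT, and every pifq library lay above every WT library of its organ. In hooks 6 of the 13 genes were called higher and none lower, and in hypocotyls 6 and none, where 36.6% and 35.9% of all genes were called higher. Without WT replicate 1 and pifq replicate 3 of every organ, 7 of the 9 jasmonate and VSP genes other than LOX2 were called in hooks and 4 in hypocotyls. Of all 18897 genes tested there, 6686 were called higher and 3813 lower in hooks, and 5502 and 2329 in hypocotyls. JAR1 in hooks lost its call (-0.44, limma adjusted p = 0.0634). AOC1 in hypocotyls was no longer called (adjusted p = 0.0933), at a difference of 1.02 beside 0.88 with all libraries, and that of LOX2 was 1.75 beside 1.70. With those libraries left out, 7 of the 13 touch and wound genes were called higher and 1 lower in hooks. In hypocotyls 8 were called higher and none lower. The removal thus did not take this response out, and its part in the results was not tested.

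**Figure D2:**
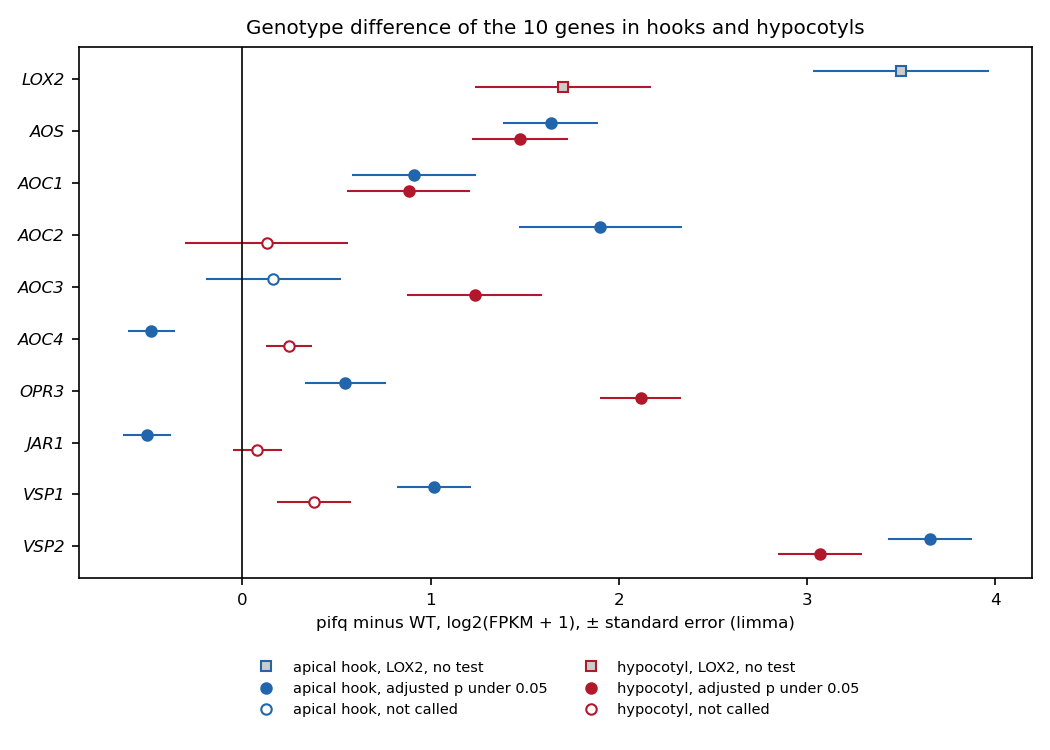
Difference between pifq and WT on the log2(FPKM + 1) scale with its limma standard error, for the 10 genes in apical hooks (blue) and hypocotyls (red); filled points have an adjusted p under 0.05, and squares mark LOX2, which has no test. OPR3 stands at 0.55 in hooks and 2.12 in hypocotyls and AOC2 at 1.90 and 0.13, while AOS lies near 1.5 in both.

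The genotype difference itself was compared between hypocotyl and hook by limma's interaction term, for the 9 genes other than LOX2. Of these 9 genes 3 had a higher difference in hypocotyls and 1 a lower one. Over all genes 16.6% and 12.5% were so called, and 29.1% in either direction. The effect on OPR3 was greater in hypocotyls by 1.57 (SE 0.303, adjusted p = 0.00123). AOC4 differed by 0.73 (SE 0.176, limma adjusted p = 0.00568), having fallen in hooks and not in hypocotyls, and JAR1 by 0.59 (SE 0.182, limma adjusted p = 0.0237). The difference for AOC2 was lower in hypocotyls by -1.77 (SE 0.613, limma adjusted p = 0.0399).

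Calls for OPR3 and AOC4 held on leaving out each library in turn, and those for JAR1 and AOC2 did not. JAR1 lost its call without WT hook replicate 1 (adjusted p = 0.0573), WT hypocotyl replicate 2 (adjusted p = 0.0503) or pifq hook replicate 1 (adjusted p = 0.0572). AOC2 lost it on leaving out any 1 of 9 libraries, with adjusted p from 0.0501 to 0.111, and with no filter on low values (adjusted p = 0.0625). Without pifq hook replicate 1 the calls numbered 2 in place of 4. For LOX2, whose level set the choice, the value of hypocotyl minus hook was -1.79 and is given with no test. AOS (-0.16, SE 0.357) and AOC1 (-0.03, SE 0.463) gave limma adjusted p-values of 0.769 and 0.972. AOC3 was not called either (1.07, limma adjusted p = 0.127). It was called without WT hook replicate 2 (adjusted p = 0.0412) and with a replicate block within genotype, chosen after seeing the data (adjusted p = 0.000356). VSP1 was not called (-0.64, limma adjusted p = 0.0946), and was called without pifq hook replicate 3 (-0.91, adjusted p = 0.00703), without WT replicate 1 and pifq replicate 3 of every organ (0.0483), under median-ratio scaling (0.0395), with a pseudocount of 0.1 (-2.26, 0.0189) and by limma-voom (-3.26, 0.0131). VSP2 was not called at -0.59 (adjusted p = 0.177), and was with a pseudocount of 0.1 (-2.18, 0.0147) and by limma-voom (-2.57, 0.0325).

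Along the seedling axis the enzymes and the VSP genes did not share 1 order of levels. In WT, hypocotyls exceeded hooks for AOS, AOC2, JAR1, VSP1 and VSP2 and lay below them for AOC4. These were 5 higher and 1 lower of the 9 genes other than LOX2. Of all genes 22.8% were called higher, 41.9% lower and 64.8% in either direction. Higher ones made 35.24% of those calls, and 50.07% under median-ratio scaling. The groups did not overlap for 5 of the 9 and 68.4% of all genes. VSP1 was higher in WT hypocotyls by 3.22 (SE 0.196, limma adjusted p = 2.3e-09) and VSP2 by 2.94 (SE 0.223, limma adjusted p = 2.26e-08). AOS was higher by 1.46 (SE 0.253, limma adjusted p = 0.000105) and JAR1 by 0.75 (SE 0.128, limma adjusted p = 9.75e-05). AOC4 was lower by -0.57 (SE 0.125, limma adjusted p = 0.000905). The call for AOC2 (1.19, SE 0.434, limma adjusted p = 0.0242) was lost without WT hook replicate 2 (adjusted p = 0.096) or 3 (0.78, adjusted p = 0.137) and without WT hypocotyl replicate 1 (adjusted p = 0.0575) or 3 (0.79, adjusted p = 0.135), and without WT hook replicate 1 the difference was 1.82.

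In pifq, hypocotyls exceeded hooks for AOS, AOC3, OPR3, JAR1, VSP1 and VSP2. These were 6 higher and none lower of the 9 genes other than LOX2. Of all genes 27.1% were called higher, 37.6% lower and 64.6% in either direction. Higher ones made 41.9% of those calls, and 52.57% under median-ratio scaling. The groups did not overlap for 6 of the 9 and 67.3% of all genes. LOX2 was lower in pifq hypocotyls by -1.80, given with no test, and its groups overlapped. Median-ratio scaling added AOC4 (0.32, adjusted p = 0.0344). OPR3 was higher there by 1.59 (SE 0.214, limma adjusted p = 9.85e-06), JAR1 by 1.34 (SE 0.128, limma adjusted p = 4.25e-07) and VSP2 by 2.35 (SE 0.223, limma adjusted p = 3.86e-07). From highest to lowest, mean LOX2 ran pifq cotyledon, hook and hypocotyl and then the WT organs, with the ranges of pifq hook and hypocotyl overlapping. VSP2 ran pifq hypocotyl, pifq hook, WT hypocotyl, pifq cotyledon, WT hook and WT cotyledon, where only the last 2 groups overlapped with each other. OPR3 was highest in pifq hypocotyls, and AOC4 in WT hooks, each without overlap with the next group.

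The make-up of the gene families also differed between the genotypes and is given as shares of summed FPKM with SD of 3 libraries and no test. LOX2 made up 79.9% ± 3.60 of the 13-lipoxygenase level (LOX2, LOX3, LOX4 and LOX6) in pifq cotyledons, 26.5% ± 14.4 in pifq hooks and 4.54% ± 4.97 in pifq hypocotyls, and at most 0.758% in a WT library. In cotyledons AOC2 made up 3.39% ± 0.476 of the AOC level in WT and 44.1% ± 0.907 in pifq, while AOC4 made up 63.6% ± 5.89 and 20.1% ± 0.830. In hypocotyls AOC3 made up 24.0% ± 5.18 in WT and 37.9% ± 3.58 in pifq, with AOC4 at 60.7% ± 8.23 and 47.3% ± 4.21. Of the summed VSP level in hypocotyls, VSP2 held 47.5% ± 4.31 in WT and 86.2% ± 1.32 in pifq. AOC1, AOC2 and AOC3 lie side by side on chromosome 3, with gaps of 1330 and 1088 bases, and VSP2 and VSP1 lie 5365 bases apart on chromosome 5. The copies share exon runs of up to 73 identical bases (AOC1 and AOC3) and 54 bases (VSP1 and VSP2), and none of 100 bases, and how the authors counted reads that fit more than 1 copy is not given in the sources used here.

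**Figure D3:**
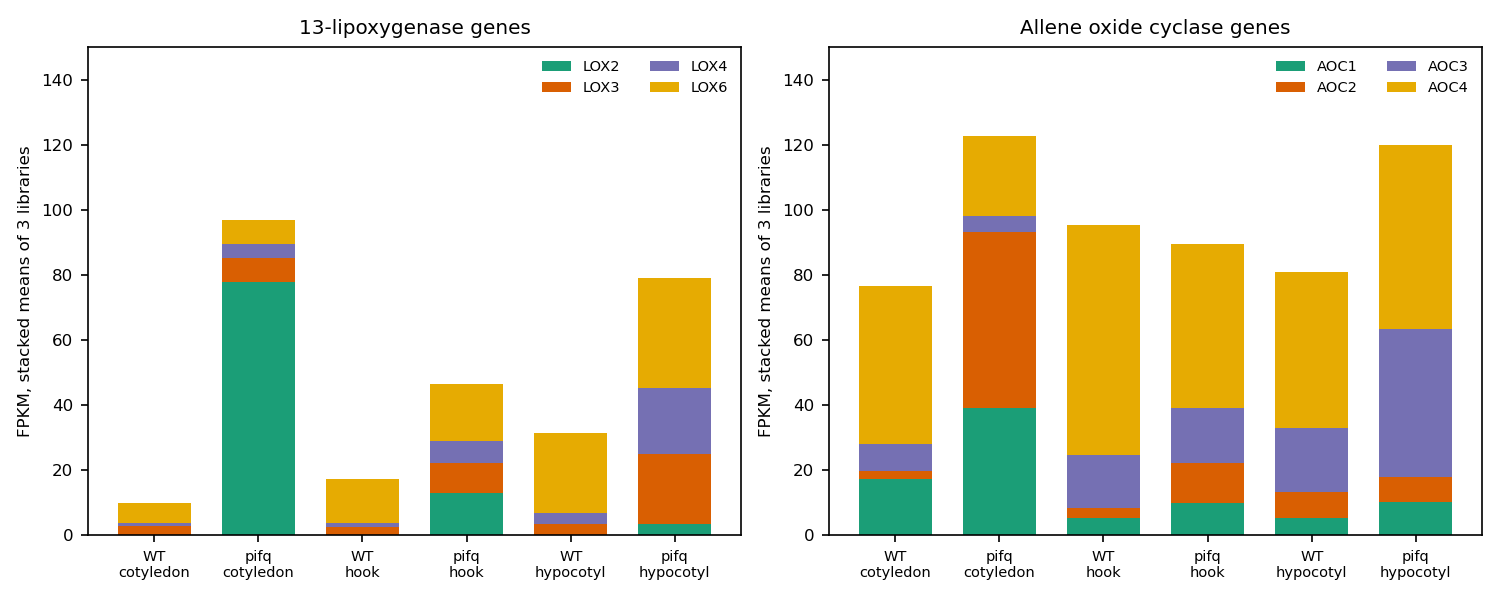
Stacked mean FPKM of 3 libraries per group for the 13-lipoxygenase genes (left) and the allene oxide cyclase genes (right), with 1 colour per gene. In pifq cotyledons LOX2 (77.6 FPKM) makes up most of the left bar, and AOC2 stands at 2.59 FPKM in WT and 54.0 FPKM in pifq cotyledons.

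Genes around these 10 on the pathway were read from 8 lists with 61 genes, 59 of them analysed here and 51 tested. In hooks 22 were called higher and 13 lower (median 0.29), beside 36.6% and 24% of all genes. In hypocotyls 30 were called higher and 8 lower (median 0.75), beside 35.9% and 16.5% of all genes. The other 13-lipoxygenases, LOX3, LOX4 and LOX6, were called higher in both organs, 3 of 3. LOX4 rose from 1.40 ± 0.596 to 6.70 ± 1.08 FPKM in hooks (1.70, limma adjusted p = 9.87e-06) and from 3.28 ± 1.11 to 20.4 ± 3.57 FPKM in hypocotyls (2.35, limma adjusted p = 5.87e-07). LOX3 rose from 3.34 ± 2.35 to 21.3 ± 3.90 FPKM in hypocotyls (2.52, limma adjusted p = 0.000572). LOX6 was called at 0.34 in hooks and 0.43 in hypocotyls, calls that median-ratio scaling removed (adjusted p of 0.17 and 0.149).

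Upstream of the lipoxygenases, 5 of 6 genes were tested. Of these 2 rose and 2 fell in hooks, where 36.6% of all genes were called higher and 24% lower. In hypocotyls 2 rose and 1 fell, beside 35.9% and 16.5% of all genes. FAD3, the desaturase that makes linolenic acid outside the plastid, fell in hooks from 270 ± 15.5 to 76.3 ± 4.90 FPKM (-1.81, limma adjusted p = 2.25e-10). FAD8, a plastid desaturase for the same step, rose in hooks from 15.9 ± 1.52 to 40.9 ± 9.62 FPKM (1.29, limma adjusted p = 0.000119). DAD1, a plastid lipase that releases linolenic acid in flowers, fell in hooks but from only 1.10 ± 0.793 to 0.0580 ± 0.0584 FPKM (-0.93, limma adjusted p = 0.0174).

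The peroxisomal steps moved both ways, with 3 genes called higher and 4 lower of 9 in hooks and 3 and 2 in hypocotyls. Under median-ratio scaling these were 3 and 6, and 3 and 5. Over all genes 36.6% were called higher and 24% lower in hooks, and 35.9% and 16.5% in hypocotyls. OPCL1, a ligase that activates OPDA products with coenzyme A, rose from 3.82 ± 0.425 to 16.2 ± 2.18 FPKM in hooks (1.83, limma adjusted p = 1.98e-08) and from 10.9 ± 2.28 to 63.9 ± 2.26 FPKM in hypocotyls (2.46, limma adjusted p = 1.55e-09). JASSY, a channel for OPDA export from the plastid, rose in hypocotyls from 9.90 ± 0.696 to 18.4 ± 2.21 FPKM (0.83, limma adjusted p = 4.42e-06). ACX1, an acyl-CoA oxidase of beta-oxidation, fell in hooks from 199 ± 7.36 to 94.7 ± 6.44 FPKM (-1.06, limma adjusted p = 1.03e-06). In cotyledons, with no test, ACX1, MFP2 and PED1, which also serve breakdown of stored fatty acids, lay at 303 ± 8.76, 166 ± 13.6 and 376 ± 30.8 FPKM in WT and 81.3 ± 2.67, 36.1 ± 6.31 and 100.3 ± 13.2 FPKM in pifq. KAT5, another thiolase, was called higher in both organs (1.16 in hooks, limma adjusted p = 0.00415, and 1.37 in hypocotyls, limma adjusted p = 0.00149).

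Among 9 tested genes of jasmonate turnover, 4 rose and 2 fell in hooks, near the 36.6% and 24% of all genes. In hypocotyls 5 rose and 1 fell, beside 35.9% and 16.5% of all genes. CYP94B1, which oxidises the active conjugate, rose in hypocotyls from 27.0 ± 7.74 to 78.3 ± 14.1 FPKM (1.53, limma adjusted p = 0.00018). JOX2, an oxidase of jasmonic acid, rose there from 8.22 ± 2.46 to 31.6 ± 8.02 FPKM (1.84, limma adjusted p = 0.00202). ST2A, a sulfotransferase for hydroxyjasmonate, fell in hooks from 68.9 ± 8.78 to 8.53 ± 3.25 FPKM (-2.92, limma adjusted p = 6.5e-09). CYP94B3, a relative of CYP94B1, was called in hooks (1.80, limma adjusted p = 0.0115) but not without WT hook replicate 2 (adjusted p = 0.0719) or pifq hook replicate 2 (adjusted p = 0.0603).

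In the signalling list of receptor, JAZ repressors and MYC factors, 7 of 16 tested genes rose and 2 fell in hooks. In hypocotyls 11 rose and 2 fell (9 and 4 under median-ratio scaling). Over all genes 36.6% were called higher and 24% lower in hooks, and 35.9% and 16.5% in hypocotyls. JAZ8, one of the repressors whose genes jasmonate induces, rose in hypocotyls from 0.681 ± 0.234 to 11.8 ± 2.40 FPKM (2.92, limma adjusted p = 2.19e-08). The remaining jasmonate-responsive list had 4 of 9 genes tested, with 1 rise and 2 falls in hooks and 2 of each in hypocotyls. CLH1, a chlorophyllase gene induced by methyl jasmonate, rose in hypocotyls from 4.05 ± 0.331 to 43.3 ± 2.87 FPKM (3.14, limma adjusted p = 5.69e-12). ANAC019 and ANAC055, transcription factor genes known to be induced by jasmonate, fell in hooks, ANAC019 from 17.8 ± 5.13 to 0.625 ± 0.358 FPKM (-3.52, limma adjusted p = 1.48e-07) and ANAC055 from 17.5 ± 4.39 to 1.92 ± 0.433 FPKM (-2.65, limma adjusted p = 7.65e-07). Both also fell in hypocotyls, by 2.0 and 1.97 on the log2 scale (limma adjusted p of 8.69e-05 and 2.7e-05). Jasmonate-responsive genes therefore moved in both directions in the same libraries.

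Among side-branch and related genes, transcripts of HPL1, the hydroperoxide lyase gene, were low. They rose from 0.272 ± 0.0731 to 1.94 ± 0.732 FPKM in hooks (1.18, limma adjusted p = 3.54e-06) and from 0.210 ± 0.0820 to 1.12 ± 0.153 FPKM in hypocotyls (0.81, limma adjusted p = 0.000219). Enzyme activity was not measured. OPR2, a relative of OPR3, fell in hooks from 18.2 ± 1.26 to 8.37 ± 0.0731 FPKM (-1.03, limma adjusted p = 1.34e-05), the organ in which OPR3 was called higher. LOX1, a 9-lipoxygenase that feeds other oxylipins, rose by 0.79 in hooks and 0.88 in hypocotyls (limma adjusted p of 0.00279 and 0.00165).

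**Figure D4:**
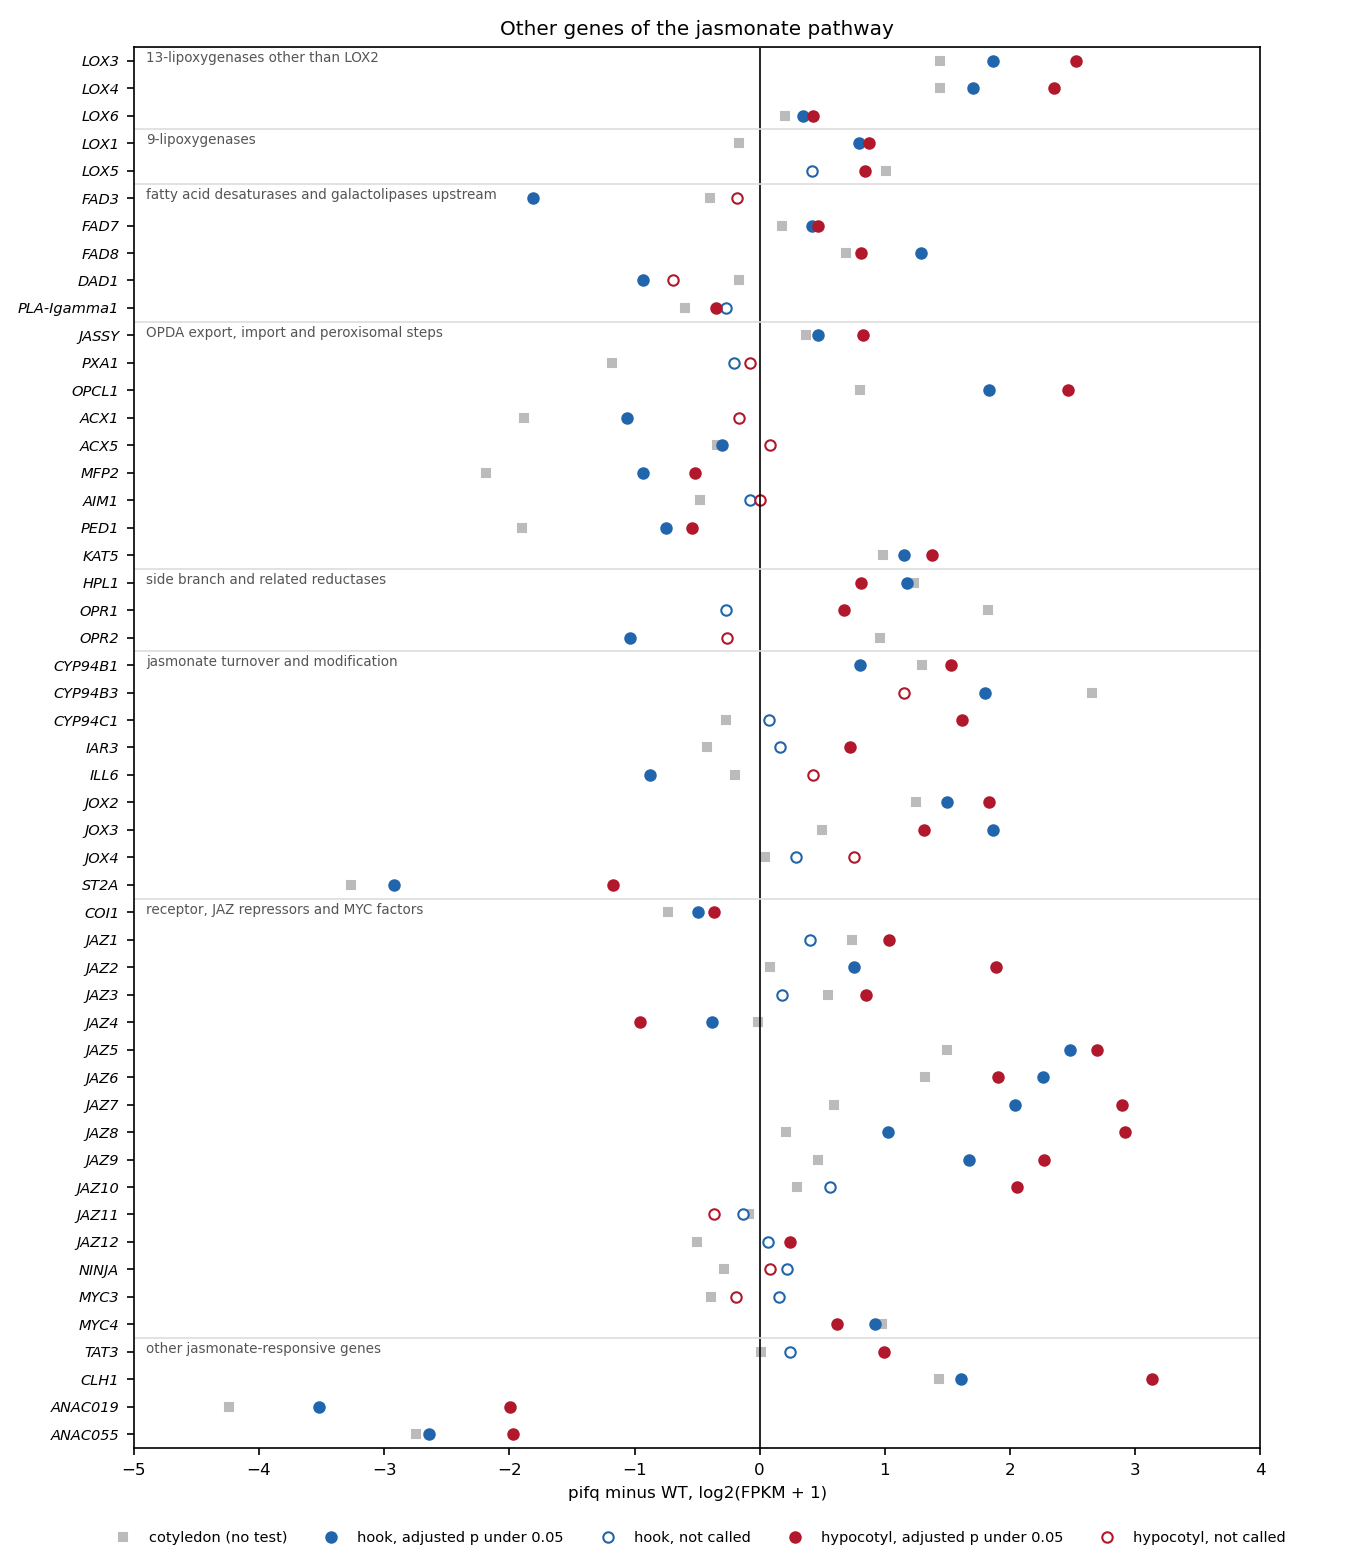
Difference between pifq and WT on the log2(FPKM + 1) scale for the other tested genes of the pathway, by list, in cotyledons (grey squares, no test), hooks (blue) and hypocotyls (red), with filled circles for an adjusted p under 0.05. The 13-lipoxygenases all lie to the right, up to 2.52 for LOX3 in hypocotyls, while ANAC019 lies at -3.52 in hooks and the peroxisomal genes fall on both sides of 0.

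Genes with the closest pattern were ranked by Pearson's r of log2(FPKM + 1) over the 18 libraries, which share organ and genotype, and are given as a description. For LOX2 they were AT3G09450 (r = 0.994), MGD2 (0.988), AT1G23110 (0.987), PS2 (0.987) and AT3G06655 (0.983). These values include the cotyledon libraries whose LOX2 level set the choice. AT3G09450 was low, with means of at most 0.0638 FPKM in the WT groups and 1.49 FPKM in pifq cotyledons. MGD2, which encodes a galactolipid synthase, averaged 2.79, 3.37 and 2.48 FPKM in WT cotyledon, hook and hypocotyl and 125, 37.5 and 9.67 FPKM in pifq. PS2, which encodes a phosphatase, averaged 2.67, 3.22 and 3.93 FPKM in WT and 249, 65.4 and 13.6 FPKM in pifq, the same order of organs as LOX2. Of the other 9 genes AOC2 was closest to LOX2 (r = 0.882, rank 247).

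For AOS the closest genes were AT3G62010 (r = 0.929), LOX4 (0.927), AT1G69900 (0.923), AT3G56360 (0.914) and SOT17 (0.914), a sulfotransferase of glucosinolate synthesis. VSP2 was closest to AT5G38020 (r = 0.990), AT4G11210 (0.981), OPCL1 (0.978), AT4G17470 (0.977) and HB18 (0.975). With LOX2, VSP2 gave r = 0.0744, the first being highest in pifq cotyledons and the second in pifq hypocotyls.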

How the data were processed

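RNA sequencing was done on 18 libraries, 3 from each of 2 genotypes in 3 organs. Per the labels' protocols, Trizol-extracted total RNA was freed of DNA with DNase I, and libraries came from a NEBNext Ultra kit for RNA. HISAT2, DESeq2 and TAIR10 are named, per the submitters' processing notes, and their roles and versions are not given in the sources used here. The authors deposited 1 FPKM value per gene and library, a unit read from the values: times the merged exon length in TAIR10.1, 99.37% to 99.50% of values below 100 reads were whole within 0.05 reads, for 25788 of 26073 genes. Intervals of pooled reads cover counting error only.

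From the files, limma 3.58.1 in R 4.3.3 was fitted with a trend to log2(FPKM + 1), a scale on which fold changes of low genes come out too small, for 6 group means together and no block. It took the 19349 genes reaching 1 FPKM in 3 or more libraries, with Benjamini-Hochberg adjustment over all genes of a contrast. The fit was tested on simulated data. Members and lists were chosen with earlier results of these data known. Named genes are the members, PIF loci, up to 3 per list and organ with the largest difference among genes called with groups apart (in cotyledons past 2-fold with groups apart), and the 5 most like LOX2, AOS and VSP2. All 10 members passed the filter. The design named a count test for files of raw counts, which FPKM do not allow. Alternatives were no filter, a filter at 5 FPKM, a pseudocount of 0.1, median-ratio scaling (factors 0.815 to 1.236), nuclear genes only, a replicate block, only the libraries compared, limma-voom on recovered reads, each library left out, and, chosen after seeing the data, an organelle covariate, a replicate block within genotype and the removal of WT replicate 1 and pifq replicate 3. Deviations of same-numbered hook and hypocotyl libraries correlated at 0.12, 0.201 and 0.116 in pifq and at 0.0701, 0.221 and 0.182 in WT. This is a hint of pairs from the data and not the labels. The p-values given for these organs come from the fit with no block unless a block is named. The block within genotype changed no member call between them in pifq. It added AOC3 in WT and in the interaction. Of the lists, root markers had no gene to test.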

Additional observations from a re-analysis of the deposited data

Results flagged for a closer look

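The difference between pifq and WT depended on the organ for 4 of the 9 genes other than LOX2 by limma's interaction term. It is given as hypocotyl minus hook on the log2(FPKM + 1) scale. OPR3 gave 1.57 (adjusted p = 0.00123), AOC4 0.73 (0.00568), JAR1 0.59 (0.0237) and AOC2 -1.77 (0.0399). Over all genes 29.1% were called. AOC2 lost its call on leaving out any 1 of 9 libraries, and JAR1 on leaving out any 1 of 3.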

How the results depend on the processing

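No called difference of a member turned its sign under the alternatives run, but uncalled ones near 0 did, such as AOC3 in hooks (0.16, and -0.33 with the organelle covariate or -0.20 without WT hook replicate 2), AOC2 and JAR1 in hypocotyls (0.13 and 0.08, and -0.08 and -0.16 under median-ratio scaling) and, untested, OPR3 in cotyledons (-0.04, and 0.17 under that scaling). The counts below leave out LOX2 except in cotyledons, where its level set the choice. The organelle covariate moved counts by over 1.5 times, from 8 to 3 in hooks, 5 to 3 in hypocotyls and 4 to 2 for the interaction. So did a fit of only the libraries compared (4 to 2 for the interaction). Leaving out pifq hook replicate 1 (4 to 2 for the interaction) or WT hypocotyl replicate 2 (5 to 3 in hypocotyls) did so too. Calls over all genes also moved. For the interaction the main fit called 3210 higher and 2417 lower. These were 2144 and 1868 with the covariate, 2685 and 1888 with only the libraries compared, and 2583 and 1942 without pifq hook replicate 1. In hypocotyls 6939 and 3198 became 6220 and 2584 with the covariate, and 6669 and 3063 without WT hypocotyl replicate 2. Leaving out each library in turn gave 6 to 8 members called in hooks, 3 to 6 in hypocotyls and 2 to 4 for the interaction. Over all genes the same fits called 6396 to 7197 higher and 4056 to 4751 lower in hooks. In hypocotyls they called 6113 to 6948 higher and 2746 to 3252 lower, and for the interaction 2583 to 3492 and 1846 to 2403. For hypocotyl against hook, leaving out each library gave 5 to 6 in WT and 6 in pifq. In cotyledons it gave 4 to 5 past 2-fold, a count that includes LOX2. The cause was not tested.

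Correlations of same-numbered WT and pifq libraries ran from -0.0098 to 0.247, so across genotypes the numbers were not taken as pairs. Of the 9 genes other than LOX2, the replicate block called 8 in hooks, 5 in hypocotyls and 4 for the interaction. For hypocotyl against hook it called 6 of the 9 in WT and 6 in pifq. Of all genes it called 7032 higher and 4573 lower in hooks and 6852 and 3163 in hypocotyls. For the interaction these were 3057 and 2364. Between organs they were 4410 and 8039 in WT and 5217 and 7209 in pifq. Between WT hooks and hypocotyls same-numbered libraries gave 0.0701, 0.221 and 0.182, each the highest for both its libraries, a hint from the data and not the design. A replicate block within genotype, chosen after seeing the data, called 7 of the 9 in WT, with AOC3 added (0.30, limma adjusted p = 0.0248). In pifq this block called 6 of the 9. Of all genes it called 4447 higher and 8043 lower in WT and 5246 and 7176 in pifq. For the interaction it called 5 of the 9 genes other than LOX2, with AOC3 added (adjusted p = 0.000356). Fits of only the libraries compared left out VSP1 in hooks, and LOX2 in hypocotyls and between WT organs, through the filter. At 1 read in 1 kb worth 0.0483 to 0.0772 FPKM, depth limits what can be said of LOX2 and VSP1 in WT cotyledons and hooks.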
